A study of Mus musculus with 40 samples.

Results

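A set of 8 genes of the acute-phase and injury response was followed through the mouse uterus after doxorubicin and anti-Müllerian hormone (AMH): Il6, Socs3, Saa3, Serpina3n, C4b, Hp, Cp and Apod. They were read by gene symbol from a deposited table of 54532 genes, and all 8 were found once. The genes were chosen by name with earlier results of these data known. The choice rested on doxorubicin against vehicle at 24 h, so every comparison that uses those libraries is given as a description, with no test, and the other tests are not independent evidence on this set. The study put 40 uterine RNA-seq libraries in 8 groups of 5. Prepubertal mice (postnatal day 25) had received vehicle (PBS/saline), doxorubicin (2 weekly doses of 3 mg/kg), doxorubicin with AMH (0.75 mg/kg) or AMH alone, and uteri were collected at 4 or 24 h. The labels call the libraries of a group biological replicates but name no animal, strain or pooling, so p-values measure the spread between these libraries. AMH is the hormone that makes the Müllerian duct regress in male embryos, and doxorubicin is an anthracycline that poisons topoisomerase II and breaks DNA.

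In the acute-phase response, cytokines of the IL6 family bind receptors that share gp130 and activate JAK kinases and the transcription factor STAT3. STAT3, together with C/EBP and NF-kB factors, raises secreted proteins, in liver above all but also in injured tissues, and SOCS3 feeds back to silence the receptor. Of the 8 genes here, Il6 encodes the ligand and Socs3 the feedback inhibitor. Saa3, Serpina3n, Hp, C4b, Cp and Apod encode secreted proteins: a serum amyloid A made outside the liver, a serine protease inhibitor, the haemoglobin-binding haptoglobin, complement C4, the copper-carrying ferroxidase ceruloplasmin and a lipocalin that carries lipids. All 8 were annotated as protein-coding.

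Promoter sequence was looked up for motifs of the pathway's factors and of the glucocorticoid receptor. RefSeq windows (build GRCm38.p6, 250 bases before to 50 after a start site) were found for 6 of the 8 genes, all but Hp and C4b. Of the stretches below, those of Il6, Saa3 and Socs3 hold a match to a factor of this pathway and that of Serpina3n, which passed the test below, holds none. Capitals mark the matches, and positions count back from -1, the base before the start site. The lines read 5′ to 3′ on the gene's own strand. The Il6 stretch (chr5:30012864-30013088, plus strand, positions -250 to -26) holds a C/EBP match (TTNNGCAA) starting at -128 and an NF-kB match starting at -44. The Saa3 stretch (chr7:46715702-46715926, minus strand, positions -250 to -26) holds a C/EBP match starting at -99. The Socs3 stretch (chr11:117969502-117969530, minus strand, positions -164 to -136) holds a STAT match (TTCNNNGAA) starting at -154. It lies before the RefSeq start site but within the Socs3 gene as deposited (chr11:117966079-117970047), which starts further upstream. The Serpina3n stretch lies at chr12:104406458-104406682 on the plus strand (positions -250 to -26).
Il6: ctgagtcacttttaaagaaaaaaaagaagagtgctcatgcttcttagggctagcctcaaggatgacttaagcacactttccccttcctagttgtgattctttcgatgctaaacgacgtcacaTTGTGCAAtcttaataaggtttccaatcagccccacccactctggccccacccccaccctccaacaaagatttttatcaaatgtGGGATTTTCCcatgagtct
Saa3: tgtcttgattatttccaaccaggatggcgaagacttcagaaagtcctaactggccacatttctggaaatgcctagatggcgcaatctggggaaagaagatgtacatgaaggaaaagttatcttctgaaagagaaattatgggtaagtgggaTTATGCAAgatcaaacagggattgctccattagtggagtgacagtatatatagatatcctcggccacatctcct
Socs3: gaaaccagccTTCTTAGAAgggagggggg
Serpina3n: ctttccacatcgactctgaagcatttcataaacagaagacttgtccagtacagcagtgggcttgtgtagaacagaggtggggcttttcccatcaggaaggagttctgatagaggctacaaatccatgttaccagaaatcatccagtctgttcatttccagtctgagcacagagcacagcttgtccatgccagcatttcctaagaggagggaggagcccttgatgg
Both strands of the whole window were searched. One of the Cp windows held a C/EBP match starting at -70, and the Apod window held no match to any of the motifs. Of 32817 windows of the same length, 10.8% held the C/EBP letters, 8.29% the STAT letters and 8.46% the NF-kB consensus. The glucocorticoid receptor palindrome was in 0.00914% of windows and in none of those of these genes. A match describes letters in a window and not binding.

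The libraries held 16251563 to 27391049 reads in genes (median 19521890), and uterine markers such as Hoxa10 and Pgr were present in all 40. The liver marker albumin (Alb) was at 0 to 0.587 FPKM (reads divided by gene length and a scaling factor of the library), and the 9 liver markers summed to 0.127 to 3.99 FPKM. Markers of oviduct and ciliated cells stood apart in 9 libraries: vehicle replicates 4 and 5, doxorubicin 3 and 4 and doxorubicin with AMH 5 at 4 h, and doxorubicin 3, 4 and 5 and doxorubicin with AMH 4 at 24 h. Oestrogen-responsive epithelial genes stood apart in 4 libraries of 24 h (vehicle 1, 2 and 4, AMH 3). In whole tissue, fewer cells of a type and less RNA per cell cannot be told apart.

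Il6 (chr5:30013114-30019981, plus strand; all gene positions are as deposited) was close to undetected. It reached 1 FPKM in 1 of 40 libraries and so missed the filter for testing, which asked for 1 FPKM in at least 5 libraries. In doxorubicin libraries at 4 h it was at 0.0430, 0.180, 1.87, 0 and 0.185 FPKM in replicates 1 to 5, which rested on 2, 8, 80, 0 and 9 reads. In every other group it stayed at or below 0.241 FPKM, and all 5 libraries of AMH alone at 24 h held 0 reads. A count of 0 there allows up to 3 reads, which is 0.0465 to 0.0842 FPKM over the 40 libraries. The library with 80 reads was doxorubicin replicate 3 at 4 h.

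Socs3 (chr11:117966079-117970047, minus strand) was expressed in every library. In vehicle libraries at 4 h it was at 6.75, 7.04, 5.72, 7.79 and 6.16 FPKM. In doxorubicin libraries at 4 h it was at 8.22, 11.2, 32.6, 6.24 and 11.2 FPKM. Replicate 3 was again the highest of all 40, replicates 1, 2 and 5 were also above every vehicle library, and replicate 4 lay inside the vehicle range. The log2 difference at 4 h was 0.73 ± 0.27 (limma standard error, n = 5 against 5) with an adjusted p of 0.241, and 0.38 with an adjusted p of 0.667 without replicate 3. With AMH, doxorubicin libraries at 4 h were at 5.72, 11.2, 4.88, 12.5 and 10.4 FPKM. The libraries of AMH alone were at 5.93, 8.65, 5.37, 5.76 and 6.18 FPKM, and these groups overlapped. At 24 h Socs3 spanned 6.01 to 14.8 FPKM with vehicle, 4.94 to 8.97 with doxorubicin, 7.02 to 11.2 with both agents and 5.44 to 10.6 with AMH, all overlapping.

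Doxorubicin replicate 3 at 4 h was high for other genes as well. It was the highest of the 20 libraries at 4 h for Saa3 and Serpina3n. Genes of leukocyte recruitment were high in it: Ccl2, the monocyte-attracting chemokine, was at 1.88, 5.72, 64.7, 2.42 and 5.49 FPKM in doxorubicin replicates 1 to 5 against 0.317 to 1.12 FPKM with vehicle. Icam1, a leukocyte adhesion molecule, was at 12.5, 15.1, 34.9, 6.25 and 13.9 FPKM against 5.33 to 6.93 FPKM. Cebpd, a C/EBP factor of the acute-phase response, was at 7.78, 8.64, 29.1, 6.30 and 7.82 FPKM against 5.14 to 6.90 FPKM. The same library held the highest summed neutrophil markers of the 40 (12.7 FPKM; 1.81 to 4.51 with vehicle at 4 h) and a high oviduct marker sum (444 FPKM; 70.5 to 234 with vehicle). Only 4 of the 11 neutrophil markers passed the filter. Over all 40 libraries their peaks ran from 0.261 FPKM (Cxcr2) to 8.75 FPKM (Ly6g), with Elane at 0.278 and Mpo at 0.557 FPKM. The part of these cells in the levels was not tested.

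**Figure D1:**
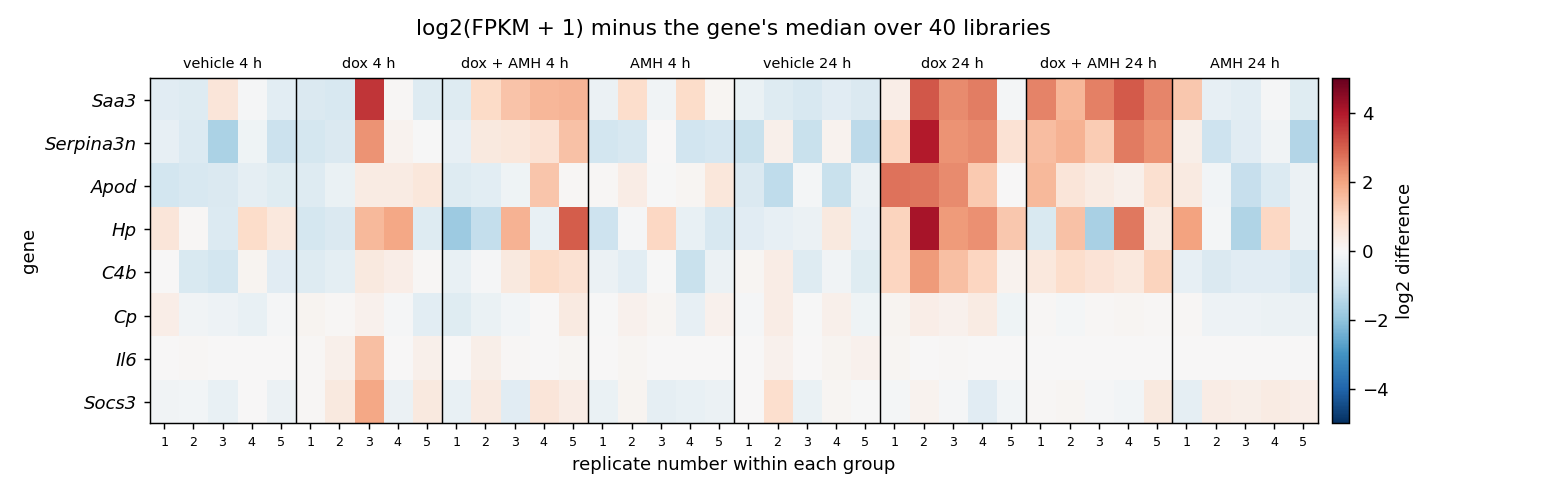
Level of each gene (rows) in each of the 40 libraries (columns, by group and replicate number), as log2(FPKM + 1) minus the gene's median over all libraries, with red above and blue below the median. Doxorubicin replicate 3 at 4 h is red for Saa3, Serpina3n, Il6 and Socs3, and most doxorubicin libraries at 24 h are red for Saa3, Serpina3n, Apod and Hp.

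Saa3 (chr7:46711998-46715700, minus strand) was near the floor in control tissue. With vehicle it was at 0.262, 0.188, 1.82, 0.791 and 0.296 FPKM at 4 h and 0.487, 0.183, 0.0664, 0.274 and 0.137 FPKM at 24 h. With doxorubicin at 4 h it was at 0.140, 0.0839, 21.4, 0.940 and 0.211 FPKM, so that 1 library was high and the other 4 lay at or near the vehicle range. The log2 difference of 0.55 ± 0.61 (limma, adjusted p = 0.771) turned to -0.27 without replicate 3. With doxorubicin and AMH at 4 h it was at 0.188, 2.59, 3.97, 4.88 and 5.11 FPKM, 4 of 5 libraries above every vehicle library. With AMH alone at 4 h it was at 0.527, 2.41, 0.668, 2.54 and 0.977 FPKM, overlapping both. By 24 h the doxorubicin libraries were at 1.34, 15.1, 8.68, 10.1 and 0.768 FPKM and those with both agents at 9.48, 4.94, 9.76, 14.8 and 9.21 FPKM. All 10 stood above the highest vehicle library of 24 h (0.487 FPKM). For doxorubicin alone, 1.92% of all genes were likewise higher than vehicle without overlap, and no such share is given for both agents. AMH alone at 24 h gave 3.79, 0.391, 0.311, 0.805 and 0.215 FPKM, with replicate 1 apart from the rest. Saa3 reached 1 FPKM in 18 of 40 libraries, 4 of them doxorubicin libraries and 5 of them libraries with both agents at 24 h, and 0 of the vehicle libraries of that time. The related Saa1 and Saa2 stayed at or below 2.52 and 0.85 FPKM in every library.

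Serpina3n (chr12:104406729-104414329, plus strand) followed a similar course from a higher base. Vehicle libraries were at 2.26, 1.71, 0.448, 2.77 and 1.05 FPKM at 4 h and 1.03, 4.16, 1.03, 3.98 and 0.778 FPKM at 24 h. Doxorubicin libraries at 4 h were at 1.39, 1.67, 19.7, 3.87 and 3.29 FPKM. Replicate 3 stood apart, replicates 4 and 5 lay just above the vehicle range, and the log2 difference was 0.96 ± 0.50 (limma, adjusted p = 0.443) and 0.44 without replicate 3. With both agents at 4 h it was at 2.24, 5.10, 5.53, 6.23 and 10.9 FPKM, and with AMH alone at 1.30, 1.48, 3.42, 1.26 and 1.42 FPKM. At 24 h the doxorubicin libraries were at 8.16, 67.1, 19.8, 21.4 and 6.28 FPKM, all above every vehicle library. Libraries with both agents at 24 h were at 11.6, 13.4, 9.46, 25.0 and 19.7 FPKM. Those with AMH alone were at 4.35, 1.12, 1.96, 2.83 and 0.566 FPKM, so these groups did not overlap. The cluster neighbour Serpina3g spanned 0.421 to 20.2 FPKM and Serpina3m stayed at or below 0.82 FPKM, and reads shared among these near copies could have been split between them.

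C4b (chr17:34728380-34743882, minus strand) had a higher floor than Saa3 and Serpina3n, with a lowest library of 2.79 FPKM. Vehicle libraries were at 7.30, 3.85, 3.33, 7.99 and 4.48 FPKM at 4 h and 7.77, 9.76, 4.23, 6.20 and 4.37 FPKM at 24 h. Doxorubicin libraries were at 4.32, 4.80, 10.5, 9.23 and 7.50 FPKM at 4 h and 16.3, 34.7, 22.0, 16.2 and 8.37 FPKM at 24 h. At 24 h, 4 of 5 doxorubicin libraries lay above every vehicle library and replicate 5 inside their range. With both agents C4b was at 5.37, 6.82, 10.5, 14.8 and 13.0 FPKM at 4 h and 10.9, 14.0, 12.1, 10.9 and 16.7 FPKM at 24 h. With AMH alone it was at 5.71, 4.66, 7.14, 2.79 and 5.78 FPKM at 4 h and 5.21, 3.92, 4.48, 4.62 and 3.73 FPKM at 24 h. The lowest library with both agents at 24 h was thus above the highest with AMH alone. The near-identical copy C4a was at 0.101 to 0.586 FPKM throughout.

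Apod (chr16:31296192-31314808, minus strand) was higher in every AMH library than in every vehicle library at 4 h. Vehicle libraries at 4 h were at 0.855, 0.993, 1.14, 1.56 and 1.30 FPKM. AMH libraries at 4 h were at 2.66, 3.48, 2.46, 2.78 and 4.13 FPKM. Doxorubicin libraries at 4 h were at 1.22, 1.80, 3.66, 3.61 and 4.19 FPKM and those with both agents at 1.25, 1.40, 2.03, 8.21 and 2.68 FPKM, overlapping vehicle and AMH. At 24 h vehicle libraries were at 1.10, 0.450, 2.28, 0.600 and 1.85 FPKM. Doxorubicin libraries at 24 h were at 21.6, 21.3, 16.7, 7.60 and 2.52 FPKM, all above vehicle, with replicate 5 the lowest. Libraries with both agents at 24 h were at 9.82, 4.36, 3.62, 3.12 and 5.07 FPKM and those with AMH at 3.79, 2.15, 0.562, 1.16 and 1.81 FPKM, which overlapped in 1 library of the AMH group.

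Hp (chr8:109575128-109579172, minus strand) varied widely within groups. At 4 h it was at 11.3, 7.43, 4.07, 14.5 and 10.6 FPKM with vehicle and 3.35, 3.95, 23.7, 30.1 and 4.14 FPKM with doxorubicin. At 4 h it was at 1.32, 2.55, 26.1, 5.20 and 65.2 FPKM with both agents and 2.97, 6.78, 15.7, 5.31 and 3.70 FPKM with AMH. The groups of 4 h overlapped widely. At 24 h it was at 4.51, 5.09, 5.64, 10.3 and 5.11 FPKM with vehicle and 16.5, 142, 34.1, 38.7 and 19.4 FPKM with doxorubicin, the lowest doxorubicin library above the highest vehicle library. At 24 h it was at 3.78, 21.1, 1.65, 49.1 and 9.69 FPKM with both agents and 31.8, 6.61, 1.84, 15.4 and 5.65 FPKM with AMH, overlapping each other and vehicle.

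Hp levels tracked adipocyte markers from library to library. The genes most alike to Hp across libraries were Adig, Adipoq and Cidec, all adipocyte genes, with a Pearson r of 0.88, 0.87 and 0.86 over 40 libraries (deviations of log2(FPKM + 1) from group means; the points share their scaling and the tissue makeup of each library). Adipoq, which encodes adiponectin, was at 75.5 FPKM in doxorubicin replicate 2 at 24 h, the library with the highest Hp, and at 71.2 FPKM in AMH replicate 1. All 8 adipocyte markers were in the table and 7 passed the filter. At 24 h their sum ran 27.1 to 78.8 FPKM with vehicle, 30.6 to 649 with doxorubicin, 2.84 to 117 with both agents and 4.11 to 677 with AMH. Without replicate 2, the doxorubicin libraries of 24 h had sums of 30.6 to 82.1 FPKM, close to the vehicle range, and Hp of 16.5 to 38.7 FPKM against 4.51 to 10.3 FPKM with vehicle. The log2 difference of Hp between doxorubicin and vehicle at 24 h was 2.43 as fitted and 1.87 with the adipocyte score as a covariate, an alternative added after the data were seen. At 24 h, oviduct markers stood apart in doxorubicin replicates 3, 4 and 5 (Hp 34.1, 38.7 and 19.4 FPKM) and in no vehicle library. Doxorubicin replicates 1 and 2, with Hp of 16.5 and 142 FPKM, were not among them. With both agents, the library with the highest Hp at 4 h (65.2 FPKM) and at 24 h (49.1 FPKM) was high for oviduct markers. With doxorubicin at 4 h, replicates 3 and 4 were high for them and had Hp of 23.7 and 30.1 FPKM, against 3.35 to 4.14 FPKM in the others. Their adipocyte sums were 31.3 and 89.2 FPKM, against 4.53 to 26.1 FPKM in the others. Vehicle replicates 4 and 5 at 4 h, also high for oviduct markers, had Hp of 14.5 and 10.6 FPKM, against 4.07 to 11.3 FPKM in the others. The covariate value is not a test, and the part of adipocytes or of oviduct cells in the Hp difference was not tested.

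**Figure D2:**
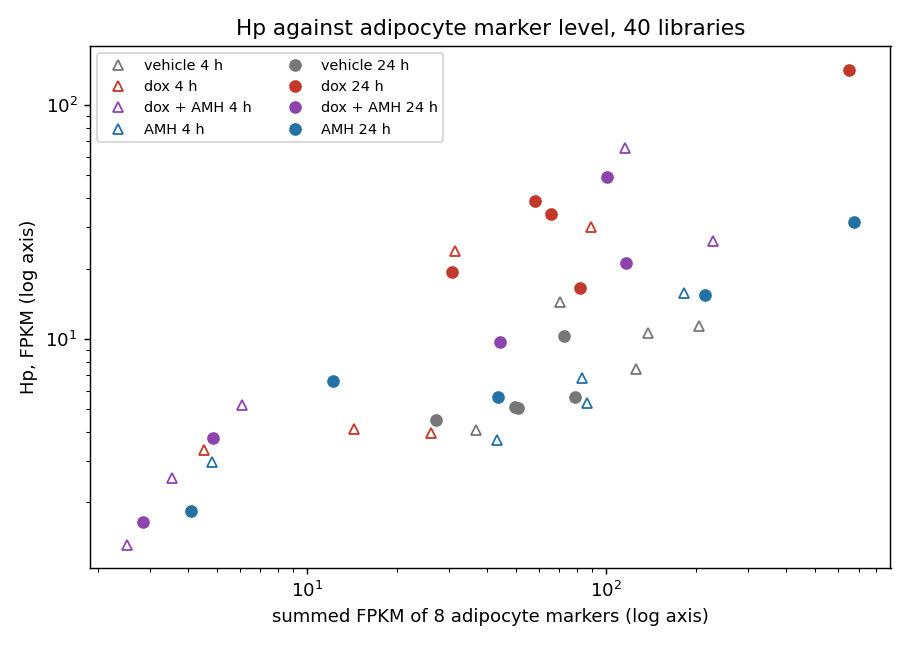
Hp level (vertical, FPKM, log axis) against the summed FPKM of 8 adipocyte markers (horizontal, log axis) in the 40 libraries, open triangles for 4 h and filled circles for 24 h, coloured by treatment. Hp climbs with the adipocyte sum, and the 5 doxorubicin libraries of 24 h (16.5 to 142 FPKM) lie above the vehicle libraries of 24 h (4.51 to 10.3 FPKM).

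Cp (chr3:19957054-20009145, plus strand) lay in a narrow range. Its 40 values lay between 1.76 and 4.77 FPKM. Group means ran from 2.61 ± 0.390 FPKM (SD, n = 5) with AMH at 24 h to 3.77 ± 0.741 FPKM with doxorubicin at 24 h, and each pair of neighbours in the order of group means overlapped. Hps3, a protein-coding gene on the other strand, overlaps Cp, and whether counting used strand is not given in the sources used here.

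**Figure D3:**
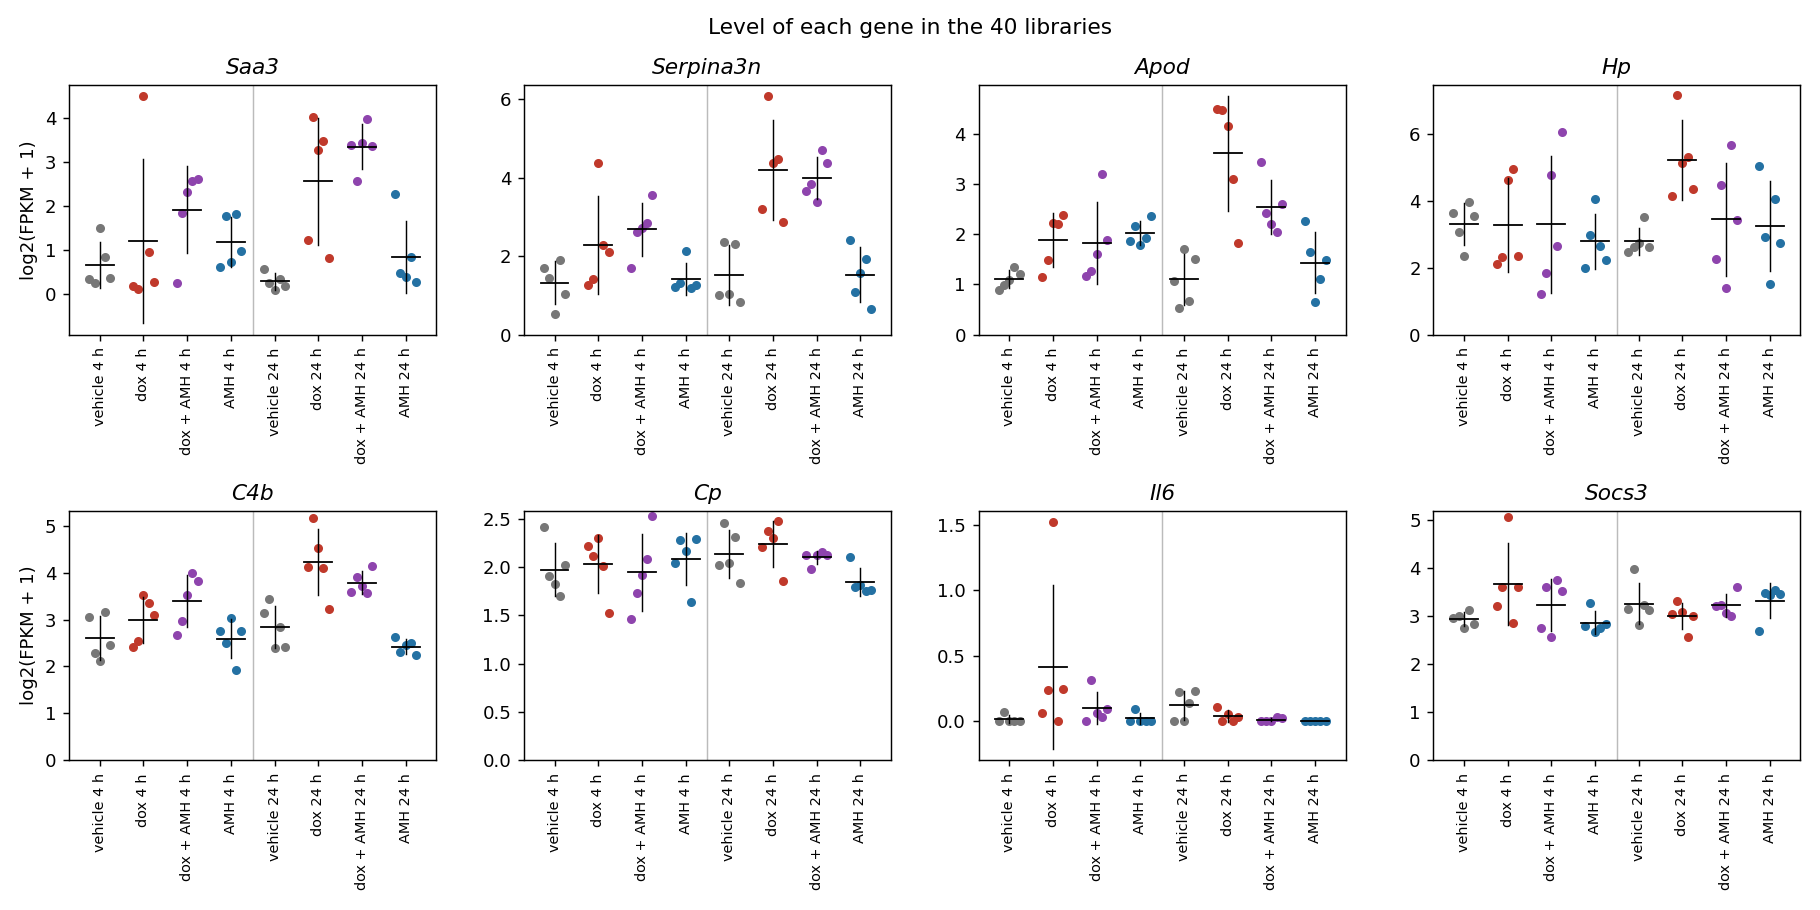
Level of each of the 8 genes, as log2(FPKM + 1), in every library (points) of the 8 groups, with the group mean (horizontal bar) and SD (vertical bar, n = 5). Saa3, Serpina3n and C4b are high in the groups with doxorubicin and with both agents at 24 h, Apod and Hp are highest with doxorubicin at 24 h, Cp lies in a narrow range, and Il6 passes 1 FPKM in 1 library.

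In order of group means, Serpina3n ran from doxorubicin at 24 h (24.5 ± 24.7 FPKM) through both agents at 24 h (15.8 ± 6.40 FPKM) and both agents at 4 h (5.99 ± 3.12 FPKM) down to vehicle at 4 h (1.65 ± 0.927 FPKM). For Saa3 the groups at the top were both agents at 24 h (9.63 ± 3.48 FPKM) and doxorubicin at 24 h (7.19 ± 6.10 FPKM), and vehicle at 24 h was lowest (0.230 ± 0.163 FPKM). For C4b they were doxorubicin at 24 h (19.5 ± 9.77 FPKM) and both agents at 24 h (12.9 ± 2.47 FPKM), and AMH at 24 h was lowest (4.39 ± 0.590 FPKM). Neighbours in these orders overlapped in every case, and a gap wider than the larger SD of the neighbours was found only between the groups with both agents at 24 and 4 h for Serpina3n and between doxorubicin and both agents at 24 h for Apod.

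The comparison of doxorubicin with AMH against AMH alone at 24 h asks what doxorubicin does in AMH-treated uteri. Its groups share no library with doxorubicin against vehicle at 24 h. The spread used in the test was pooled over all 8 groups, those libraries included. Serpina3n and C4b rose. Serpina3n was higher by 2.46 ± 0.50 on the log2(FPKM + 1) scale (adjusted p = 0.0404) and C4b by 1.36 ± 0.28 (adjusted p = 0.0434), both by limma with 5 libraries a group. These are 5.51-fold and 2.56-fold differences of FPKM + 1, and the ratios of mean FPKM were 7.32 and 2.94. For both genes, every library with both agents was above every library with AMH alone. Saa3 did not overlap between the groups either, and its difference of 2.49 ± 0.61 had an adjusted p of 0.102. Apod differed by 1.11 ± 0.39 (adjusted p = 0.229). Hp (0.19 ± 0.78, adjusted p = 0.919), Cp (0.26 ± 0.16, adjusted p = 0.455) and Socs3 (-0.10 ± 0.27, adjusted p = 0.875) did not pass either. So 2 of the 7 genes tested were called, both higher, where 0.0986% of all 16226 genes tested were called and 0.0555% were called higher. Groups that did not overlap, with doxorubicin higher, were found for 3 of 7 genes and for 1.12% of all genes.

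Those 2 calls lay near the threshold. Each was lost when any of the 10 libraries but replicate 4 with both agents and AMH replicate 1 was left out, with adjusted p up to 0.111 for Serpina3n and 0.123 for C4b, while the log2 differences stayed at 2.24 to 2.68 and 1.27 to 1.41. Without AMH replicate 1, which had the most adipocyte marker RNA of its group, 3 genes were called (Saa3 adjusted p = 0.0183), and with the adipocyte score as a covariate, an alternative added after the data were seen, both calls were kept (adjusted p = 0.00344 for Serpina3n and 0.0127 for C4b). Leaving out libraries that stood apart for oestrogen-responsive genes ended both calls (limma, adjusted p = 0.0682 for each). Leaving out those with much oviduct RNA kept both and added Saa3 (limma, adjusted p = 0.0352), with 80 of all genes called. Macrophage markers summed to 162 to 187 FPKM with both agents and 123 to 198 with AMH alone at 24 h, and neutrophil markers to 0.583 to 7.41 and 1.07 to 11.2 FPKM. Smooth muscle markers summed to 2180 to 2578 and 2369 to 3964 FPKM, and oviduct markers to 99.3 to 580.4 and 89.4 to 146 FPKM. Markers of nerve and glia, of which 2 of 7 passed the filter, summed to 4.05 to 6.07 and 2.23 to 5.21 FPKM. The part of these cell types in the result was not tested.

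**Figure D4:**
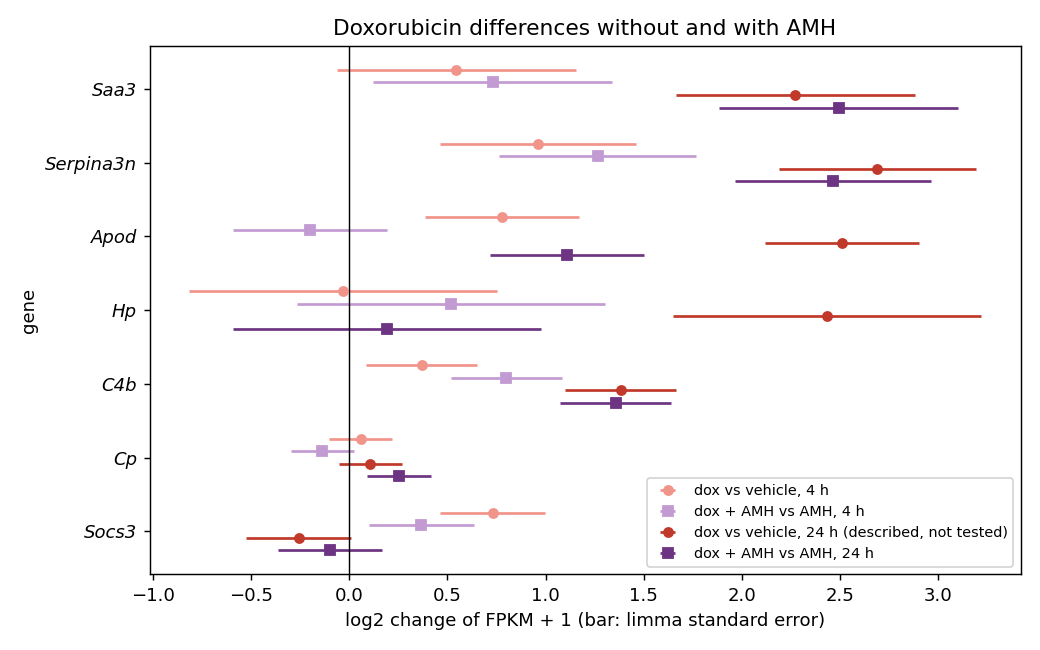
Log2 differences of FPKM + 1 (points, with limma standard errors) for doxorubicin against vehicle and for doxorubicin with AMH against AMH alone, at 4 and 24 h, for the 7 genes that passed the filter. At 24 h Saa3, Serpina3n and C4b lie at 1.36 to 2.69 in both pairs of groups. Hp lies at 2.43 ± 0.78 without AMH and 0.19 ± 0.78 with it. The difference between these Hp values was not tested, and the sign of the value with AMH turned in 5 of 23 alternatives.

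Doxorubicin against vehicle at 24 h used the libraries with which the genes had been chosen and is described only. The log2 differences were 2.69 ± 0.50 for Serpina3n, 2.51 ± 0.39 for Apod, 2.43 ± 0.78 for Hp, 2.27 ± 0.61 for Saa3 and 1.38 ± 0.28 for C4b. They were 0.11 ± 0.16 for Cp and -0.26 ± 0.27 for Socs3. Groups that did not overlap, with doxorubicin higher, were found for Saa3, Serpina3n, Apod and Hp, and for 1.92% of all genes. For both agents against doxorubicin alone at 24 h, which shares those doxorubicin libraries, the log2 differences were -1.78 ± 0.78 for Hp, -1.07 ± 0.39 for Apod, -0.44 ± 0.28 for C4b and -0.21 ± 0.50 for Serpina3n. Saa3 lay at 0.78 ± 0.61, Socs3 at 0.22 ± 0.27 and Cp at -0.14 ± 0.16. The Serpina3n difference ran from -0.54 to 0.26 with 1 library left out, so its direction was not stable. With the adipocyte score as a covariate, the Hp difference was -0.75. AMH against vehicle at 24 h gave 0.02 ± 0.50 for Serpina3n, 0.56 ± 0.61 for Saa3 and -0.42 ± 0.28 for C4b. Macrophage markers summed to 139 to 338 FPKM with doxorubicin and 149 to 244 with vehicle at 24 h, and nerve and glia markers to 3.75 to 6.38 and 1.87 to 3.27 FPKM. Oestrogen-responsive epithelial markers summed to 143 to 642 FPKM with doxorubicin and 158 to 4605 with vehicle, where replicates 1, 2 and 4 stood apart. General epithelial markers summed to 639 to 1217 and 639 to 2134 FPKM. Smooth muscle markers summed to 1644 to 2774 FPKM with doxorubicin and 3486 to 5536 with vehicle, with no overlap, stromal markers to 1225 to 2172 and 2142 to 2906 FPKM, and oviduct markers to 95.9 to 543 and 66.6 to 143 FPKM. The part of these cell types in the differences was not tested.

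At 4 h none of the 7 genes passed the test in any pair of groups. For doxorubicin against vehicle, 0 of 7 were called and 0.493% of all genes. For doxorubicin with AMH against AMH alone, 0 of 7 were called and 0.222% of all genes, with log2 differences of 1.27 ± 0.50 for Serpina3n (adjusted p = 0.329) and 0.80 ± 0.28 for C4b (adjusted p = 0.266). For doxorubicin with AMH against doxorubicin, 0 of 7 were called and 0.00616% of all genes. At an unadjusted p under 0.05, limma counted 1955, 1802 and 1123 genes of 16226 in these comparisons. Whether the doxorubicin difference under AMH changed from 4 to 24 h was tested directly. The change was 1.76 ± 0.86 for Saa3 (adjusted p = 0.266), 1.31 ± 0.55 for Apod (adjusted p = 0.234), 1.20 ± 0.71 for Serpina3n (adjusted p = 0.343) and 0.56 ± 0.40 for C4b (adjusted p = 0.439), with 0 of 7 genes and 0% of all genes called by limma, and 3008 genes at an unadjusted p under 0.05. Over all genes the count was 459 without AMH replicate 1 of 24 h, 425 without replicate 4 of both agents at 24 h and 3374 with array weights.

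Between times, libraries with both agents were higher at 24 than at 4 h by 1.43 ± 0.61 for Saa3 (adjusted p = 0.583) and 1.31 ± 0.50 for Serpina3n (adjusted p = 0.496), and 0 of 7 genes were called, with 0.074% of all genes. With AMH alone the differences from 4 to 24 h were -0.33 ± 0.61 for Saa3 and 0.11 ± 0.50 for Serpina3n, and 0 of 7 were called, with 4.01% of all genes. The count of 650 genes became 2511 without AMH replicate 1 of 24 h and 57 without AMH replicate 3 of 24 h, and the count lay at 69 to 252 when AMH replicate 1, 3, 4 or 5 of 4 h or 2 or 4 of 24 h was left out. Whether AMH altered the doxorubicin difference at 4 h was tested as well, and 0 of 7 genes and 0% of all genes were called by limma, with 2356 genes at an unadjusted p under 0.05. The Apod term was the furthest from 0 (-0.98 ± 0.55, adjusted p = 0.417).

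AMH alone against vehicle at 4 h had the most calls of the 9 comparisons tested, 3250 genes or 20% of all genes, and 0 of the 7 genes were called. The 3250 calls fell to 1700, 2008 and 2050 without vehicle replicate 2, 1 or 4, and were 5885 with only these 2 groups in the fit. Apod came nearest, higher by 0.91 ± 0.39 (limma, adjusted p = 0.0890) with no overlap between groups, as for 11.3% of all genes. Of 13 other acute-phase genes tested, 1 rose and 2 fell, a share near that of all genes: the metallothionein Mt1 by 0.75 ± 0.20, the siderophore-binding lipocalin Lcn2 by -2.33 ± 0.83 and the leucine-rich glycoprotein Lrg1 by -1.38 ± 0.41 (adjusted p = 0.0123, 0.0439 and 0.0182). The list's median log2 difference was -0.21 beside 0.01 over all genes. Lcn2 was at 86.1, 24.0, 18.4, 58.6 and 22.0 FPKM with vehicle and 8.04, 4.73, 7.08, 4.99 and 6.10 FPKM with AMH at 4 h, with no overlap. Oestrogen-responsive epithelial markers, of which 13 of 17 passed the filter, summed to 186 to 422 FPKM with vehicle and 101 to 213 with AMH at 4 h. Their median log2 difference was -0.97, with 0 that rose and 2 that fell (Padi2 and Inhbb), and their part in the Lcn2 difference was not tested. Timp1, an inhibitor of matrix metalloproteinases, was at 10.3, 13.7, 6.99, 7.50 and 6.61 FPKM with vehicle and 4.08, 3.63, 2.59, 2.83 and 2.92 FPKM with AMH, and fell (-1.22 ± 0.35, adjusted p = 0.0168). The Mt1 call held with each of the 10 libraries left out in turn. The Lcn2 call was lost in 8 of these 10 fits (limma, adjusted p up to 0.116), the Lrg1 call without replicate 1 of either group (up to 0.0603) and the Timp1 call without vehicle replicate 2 (0.0583).

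The signalling genes upstream of these products were also read, from lists drawn up for the pathway. With 20% of all genes called for AMH against vehicle at 4 h, the counts below describe single genes and say nothing particular about the lists. In AMH against vehicle at 4 h, 1 of 4 IL6-family ligands and inflammatory cytokines tested rose, the ligand Clcf1 (0.85 ± 0.28, adjusted p = 0.0320), and 2 of 14 receptors and signal transducers rose, the LIF receptor Lifr (0.55 ± 0.20) and the JAK kinase Tyk2 (0.40 ± 0.14). Clcf1 was at 5.54, 6.21, 11.2, 8.73 and 9.25 FPKM with vehicle and 16.4, 11.6, 15.1, 15.8 and 17.1 FPKM with AMH. Of 15 STAT3 feedback genes and targets, Fgl2 rose and Timp1, Lrg1 and the phosphatase Ptpn11 fell. Among complement genes other than C4b, the protease C1ra rose (0.66 ± 0.21) and 0 fell. Of 10 genes of copper and iron handling 0 rose and 2 fell, the transferrin receptor Tfrc (-1.52 ± 0.39) and the copper importer Slc31a1 (-0.50 ± 0.17), and of 7 lipocalins and lipid carriers 0 rose and 2 fell, Lcn2 and the chaperone Clu (-0.72 ± 0.23). Of 9 glucocorticoid-responsive genes 4 rose and 0 fell: Per1 (1.07 ± 0.23), Tsc22d3 (1.17 ± 0.27), Dusp1 and Klf9. Leaving out each of the 10 libraries in turn ended no call for Fgl2, Tfrc, Per1, Tsc22d3, Dusp1 or Klf9. It ended the call in 8 of the 10 fits for Tyk2, in 7 for Clcf1, Lifr and Slc31a1, in 6 for Clu, in 5 for Ptpn11 and in 4 for C1ra, with the direction of each kept.

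In the doxorubicin comparisons tested, calls in these lists were few, as were calls over all genes. Against vehicle at 4 h, 1 of 10 NF-kB feedback genes and targets rose, Icam1 (1.06 ± 0.22, limma adjusted p = 0.0114), and 0 genes of the other pathway lists were called. With AMH against AMH alone at 4 h, Cd163, the macrophage receptor that clears haptoglobin bound to haemoglobin, fell (-0.92 ± 0.16, limma adjusted p = 0.00876). The phosphatase Dusp1 fell too (-0.90 ± 0.19), from a level called higher with AMH alone than with vehicle at 4 h. At 24 h the same pair of treatments had 0 calls in each of the pathway lists, with 2301 of all 16226 genes at an unadjusted p under 0.05 by limma. From 4 to 24 h with AMH alone, Ptpn11 rose (0.36 ± 0.10) and Fgl2 (-0.91 ± 0.19) and Per1 (-0.85 ± 0.23) fell. Icam1 lost its call without doxorubicin replicate 3 (limma, adjusted p = 0.0504) and Cd163 without replicate 1 of both agents (0.0508). With 1 library left out, Dusp1 lost its call in 9 of 10 fits, and from 4 to 24 h Per1 did so in 8, Ptpn11 in 7 and Fgl2 in 1, without AMH replicate 3 of 24 h.

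Within groups, the genes differed in what they moved with. The correlations that follow are Pearson r of deviations of log2(FPKM + 1) from group means over 40 libraries, which share scaling, tissue makeup and the outlying doxorubicin library of 4 h. Among the genes themselves the highest were 0.75 for Serpina3n with C4b, 0.74 for Saa3 with Serpina3n and 0.70 for Serpina3n with Hp. The genes most alike to Socs3 were Ccl2, Vcam1 and Icam1 (0.84, 0.82 and 0.78), which encode a chemokine and adhesion molecules. Those most alike to Saa3 were Chil3, a macrophage chitinase-like protein, Serpina3n and Cebpd (0.80, 0.74 and 0.73). Serpina3n was closest to Ccl6, Stard5 and Pcx (0.82, 0.80 and 0.80). C4b was closest to the interferon-stimulated genes Ifi27l2a, Phf11b and Zbp1 (0.79, 0.79 and 0.77), and Apod to Ifi213 and the class I histocompatibility genes H2-Q7 and H2-Q6 (0.81, 0.77 and 0.73). Cp was closest to Cd9, Cd55 and Xdh (0.71, 0.71 and 0.70).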

How the data were processed

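A total of 40 RNA-seq libraries of mouse uterus were analysed from 1 deposited table. The authors deposited FPKM values for 54532 genes with positions and lengths, per the file headers. Per the labels, a Qiagen kit gave the RNA and Novogene built the libraries. The genome build is mm10 per the submitters' processing notes. Not given in the sources used here: aligner, counter, annotation, strand setting. FPKM times gene length gave whole reads in 100% of low values (tolerance 0.01 reads). Median-of-ratios size factors were equal in all libraries (1.00431), so the table was already on such a scale.

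A gene was tested if 5 or more of the 40 libraries reached 1 FPKM (16226 genes). The test was limma 3.58.1, run in R 4.3.3 on log2(FPKM + 1) (trend, all 8 groups in 1 fit), two-sided, Benjamini-Hochberg adjusted over all genes within each of 9 comparisons, threshold 0.05. A further 4 comparisons were described without a test. Differences on this scale understate those of low genes. Each gene of the set was described in every group. Of each pathway list the called genes were named, at most 4 with the smallest p, and of the genes most alike the 3 with the highest correlation. Near copies were read as levels. Ccl2, Cebpd and the marker genes given with values were singled out after their values were seen. The genes and lists were chosen with earlier results of these data known. Alternatives covered the pseudocount, filter, scaling, groups fitted, weights, robust and blocked fits, voom on rebuilt reads, marker-high libraries and leaving out each library. Scripts were tested on simulated data. The full count for the complement gene list is not reported here.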

Additional observations from a re-analysis of the deposited data

Results flagged for a closer look

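In 12 of 63 sets of 5 libraries (a gene in a group), 1 library lay apart from the other 4 by more of the range than Dixon's 95% critical value of 0.71 allows. Chance gives about 1 such set in 20, and 4 of the 12 were of Il6, whose values rest on few reads. Doxorubicin replicate 3 at 4 h was such a library for Saa3 (21.4 FPKM) and Il6 (1.87 FPKM). AMH replicate 1 at 24 h was highest for Saa3 (3.79 FPKM) and Cp (3.30 FPKM) and lowest for Socs3 (5.44 FPKM). It also held the highest adipocyte marker sum of the 40 libraries (677 FPKM). AMH replicate 2 at 4 h was highest for Il6 (0.0663 FPKM) and Socs3 (8.65 FPKM), and AMH replicate 3 at 4 h for Serpina3n (3.42 FPKM). Vehicle replicate 4 at 24 h was highest for Hp (10.3 FPKM), and vehicle replicate 2 at 4 h for Il6 (0.0465 FPKM, 3 reads). With both agents, replicate 2 was highest for Il6 at 4 h (0.241 FPKM) and lowest for Cp at 24 h (2.94 FPKM).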

How the results depend on the processing

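Of the 7 genes tested, 2 passed the test for doxorubicin with AMH against AMH alone at 24 h. The count was 0 with no filter on low values and 0 without the high-oestrogen libraries. It was 4 with array weights (Saa3, Serpina3n, Apod and C4b), 1 with voom on rebuilt reads (C4b) and 1 with the replicate block (Serpina3n). Over all 16226 genes these settings called 1824, 12 and 8. Leaving out 1 library gave 0 to 3. The cause was not tested. At 4 h the count for the same treatments was 0, and 1 with only the groups compared and 2 with array weights, which called 743 and 1120 of all genes. For AMH against vehicle at 4 h it was 0, and 1 (Apod) with only the groups compared and 1 with array weights. Those settings called 5885 and 6835 of all genes, so the Apod calls say nothing particular about it. For the change of the doxorubicin difference under AMH from 4 to 24 h it was 0, and 1 (Apod) with array weights, which called 3374 of all genes. In the other 5 tested comparisons 0 genes were called under every alternative run. Hp for both agents against AMH at 24 h turned to -0.36 without the high-oviduct libraries and -0.24 without the high-oestrogen libraries, and ran from -0.36 to 0.70 with 1 library left out. Saa3 for doxorubicin against vehicle at 4 h turned to -0.50 without the high-oviduct libraries and ran from -0.27 to 0.82 with 1 library left out. For doxorubicin against vehicle at 24 h, Saa3 was at 3.88 and Apod at 3.24 with a pseudocount of 0.1, and Apod at 3.39 without the high-oviduct libraries.

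Calls over all genes moved more widely. For both agents against AMH at 24 h they were 16, and 3 to 452 with 1 library left out and 1824 with array weights. For doxorubicin against vehicle at 4 h they were 80, and 28 to 191 with 1 library left out, 10 with only the groups compared and 530 with array weights. For both agents against AMH at 4 h they were 36, and 2 to 33, 743 and 1120 in that order. For AMH against vehicle at 4 h they were 3250, and 1700 to 3325, 5885 and 6835. For AMH from 4 to 24 h they were 650, and 57 to 2511, 66 and 3323. For both agents from 4 to 24 h they were 12, and 7 to 25, 3 and 669. For both agents against doxorubicin at 4 h they were 1, and 1 to 4, 0 and 17. For the change of the doxorubicin difference under AMH from 4 to 24 h they were 0, and 0 to 459, 0 and 3374, and for that with AMH minus without at 4 h 0, and 0 to 1, 1241 and 1667. Scaling by the sum of reads, an alternative added after the data were seen, moved the median log2 difference of all genes for doxorubicin with AMH against vehicle at 24 h from -0.0047 to 0.108. For both agents against AMH it turned 9 higher and 7 lower calls into 10 and 3 at 24 h, and 8 and 28 into 7 and 16 at 4 h. For doxorubicin against vehicle and for both agents against AMH at 24 h, no direction given for Serpina3n, C4b or Saa3 turned. For both agents against doxorubicin, Serpina3n ran from -0.54 to 0.26 with 1 library left out. No pairing by replicate number was seen: correlations of same-numbered deviations ran from -0.33 to 0.26, and at most 2 of 5 libraries correlated best with their own number. The labels do not say whether numbers pair the libraries, and a pairing with little trace over all genes would be missed. The replicate block changed 1 call, that of C4b (adjusted p = 0.0587 by limma). Depth limits Il6, for which 3 reads are 0.0465 to 0.0842 FPKM.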

Other observations

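Lcn2, which encodes a lipocalin of the acute-phase response and of oestrogen-exposed uterine epithelium, was read in every group. With vehicle at 24 h it was at 281, 949, 12.7, 316 and 18.6 FPKM, high in replicates 1, 2 and 4, the same libraries in which oestrogen-responsive epithelial genes stood apart. With AMH at 24 h it was at 2.94, 15.3, 185, 12.3 and 7.70 FPKM, high in replicate 3, again the library of its group that stood apart for those genes. With doxorubicin at 24 h it was at 43.2, 11.0, 28.7, 77.0 and 33.4 FPKM and with both agents at 5.51, 6.77, 5.35, 25.1 and 4.90 FPKM. Over the 40 libraries Lcn2 spanned 2.94 to 949 FPKM. The metallothionein Mt1 was at 47.9, 35.6, 61.6, 38.0 and 51.7 FPKM with vehicle and 78.4, 92.3, 73.6, 119.5 and 50.2 FPKM with doxorubicin at 24 h, overlapping in 1 doxorubicin library.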
